A study of Mus musculus with 6 samples.

Results

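The leukemia inhibitory factor (LIF) receptor and STAT3 pathway was described here by 10 genes: the receptor chains Lifr and Il6st, the kinases Jak1 and Jak2, the transcription factor Stat3, and the STAT3-responsive genes Socs3, Pim1, Pim3, Bcl3 and Cish. The members were all probe sets whose single platform gene symbol was 1 of these 10 names, which gave 26 of the 45101 probe sets on the array. Expression was measured on Affymetrix Mouse Genome 430 2.0 arrays in mouse embryonic stem cells of 2 genotypes, 3 arrays of wild type and 3 of cells with a C-terminally truncated Dido3 (Dido3deltaCT). Cells of both genotypes were cultured side by side in self-renewal medium with LIF and received no other agent, so LIF was present in all 6 cultures and no culture without LIF was compared. Dido3 is the longest protein of the gene Dido1, and the series asks how Dido bears on self-renewal and differentiation. The labels call the arrays of a group biological replicates. The number of separate lines or clones behind a group is not given there, nor how the truncated line was made, nor whether the cells grew on a feeder layer. If a group is 1 line, the p-values measure the spread between its cultures.

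LIF binds the receptor chain LIFR, which pairs with gp130, the protein of Il6st and the shared signalling chain of the interleukin-6 family. The kinases bound to the receptor, chiefly JAK1, phosphorylate STAT3, which enters the nucleus and activates genes such as Socs3; the protein of Socs3 in turn blocks the receptor and its kinases. In mouse embryonic stem cells STAT3 activated by LIF keeps self-renewal going in culture. A parallel arm from gp130 through SHP2 activates the MAP kinases. An mRNA array does not read phosphorylation, so the values below are transcript levels of the pathway's parts and of its responsive genes.

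STAT proteins bind palindromic elements of the form TTCNNNGAA, and a search of the RefSeq promoter windows (GRCm38.p6, 250 bases before to 50 after a start) found that element in 2 of the 12 windows of the 10 genes, those of Socs3 and Cish. Over all 32851 windows, 8.3% held it. The sequence of the element read on the opposite strand has the same form, so 1 search covers both strands. The Socs3 and Cish windows are shown in part because they held the element, with the matched element in capitals. The Socs3 stretch is the 250 bases before the start, at chr11:117969367-117969616 on the minus strand, and its element begins 154 bases before the start. The Cish stretch of 20 bases, at chr9:107296659-107296678 on the plus strand, begins at the start itself and holds 2 elements. A match is a description of these letters and was not tested as a binding site.
Socs3: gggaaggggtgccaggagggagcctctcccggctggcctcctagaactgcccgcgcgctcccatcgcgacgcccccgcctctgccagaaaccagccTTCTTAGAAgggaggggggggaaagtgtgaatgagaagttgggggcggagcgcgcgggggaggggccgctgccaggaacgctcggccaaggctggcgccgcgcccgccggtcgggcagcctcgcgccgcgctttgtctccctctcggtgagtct
Cish: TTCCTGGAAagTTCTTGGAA

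The arrays themselves differed in ways that touch the results. Array medians lay between 4.80 and 4.86 on the log2 scale. Of the 5 Dido1 probe sets, 1456405_at fell by 1.5 and 1437647_at fell by 1.47 in the truncated cells (limma adjusted p = 0.013 and 0.00106). Probe set 1437182_at was higher in every truncated than in any wild-type array, by 0.68 on average, short of the threshold (adjusted p = 0.0721), and the remaining pair differed by 0.049 and 0.033. Where each lies relative to the removed part was not analysed here. Wild-type replicate 3 and truncated replicate 2 stood apart, with mean poly-A spike-in signals of 12.1 and 12.5 where the remaining 4 lay at 6.12 to 7.85. Both also had the lowest means over 23 fibroblast markers, 6.42 and 7.57, where the remaining 4 lay at 8.67 to 9.34; 22 of the 23 markers lay above the median of all values on the arrays, and the group means were 8.25 ± 1.60 and 8.32 ± 0.64 (SD, n = 3 each; exact permutation p = 1, two-sided). For a part of the probe sets and genes, differences are therefore also given for the 4 low-spike arrays and the 2 high-spike arrays. The latter, 1 of each group, are taken as a pair. The 3′ minus 5′ signal of control transcripts reflects RNA quality. For beta-actin it was 1.07 ± 0.11 log2 units for wild type and 0.85 ± 0.02 for truncated (SD over 3 arrays each, exact permutation p = 0.1). For Gapdh it was 0.31 ± 0.01 for wild type and 0.22 ± 0.02 for truncated (SD over 3 arrays each, exact permutation p = 0.1). No design of this size can go below that p, and the part of these signals in the results was not tested. The Y-linked gene Eif2s3y (1417210_at) was at 8.43 to 8.69 in wild-type and 3.43 to 3.86 in truncated arrays, so the truncation and a difference in Y-linked RNA between the cultures cannot be told apart. Stem cell markers were high on all 6 arrays, and the mean of 9 such markers was 10.88 to 11.07. The groups did not overlap for 5 of the 9 that were higher in truncated arrays and 1 that was lower, against 22.4% of all genes. None of the 9 passed the threshold. Nanog differed by 0.48 (limma adjusted p = 0.0583 over all genes) and Tdgf1 by −0.46 (adjusted p = 0.183), and their part in the results was not tested. All 5 endoderm markers lay at or below the median of the arrays. Of 5 macrophage and blood markers, Ptprc and Adgre1 lay below that median in both groups and Csf1r, Lyz2 and Cd68 above it. Cd68 was at 6.44, 7.12 and 6.40 in wild-type and 5.78, 5.80 and 5.76 in truncated arrays (difference −0.88; limma adjusted p = 0.056 over all genes), and its part in the results was not tested. The list mean was 4.99 to 5.67 in wild-type and 4.88 to 5.45 in truncated arrays.

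None of the 26 member probe sets passed the test in the truncated cells. Truncated and wild-type arrays were compared with limma over all 45037 non-control probe sets, with a threshold of 0.05 on the Benjamini-Hochberg adjusted p; differences are given in log2 units as truncated minus wild type. The call rate was 2.8% over all probe sets (1.68% higher and 1.12% lower), and 0 of the 26 were called. At an unadjusted p under 0.05 there were 10 of 26, 3 higher and 7 lower, against 15.2% of all probe sets and 23.8% of those above the median of all values on the arrays. Wild-type and truncated values were fully separated for 9 of the 26, 2 higher and 7 lower, or 34.6% against 18.6% of all probe sets (9.72% higher and 8.89% lower). All 9 were above the median of the arrays, as were 22 of the 26, and among all probe sets above it the share without overlap was 26.6%. Probe sets of a gene share its transcript, so these 26 values are not independent. The 95% interval of the difference lay within 1 log2 unit of 0, that is within a 2-fold change either way, for 24 of the 26, against 91.8% of all probe sets; the exceptions were 1425107_a_at of Lifr and 1456212_x_at of Socs3. The median difference was −0.062 over the 26 and 0.0062 over all probe sets, and the median size was 0.28 against 0.12, or 0.17 over probe sets above the median.

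**Figure D1:**
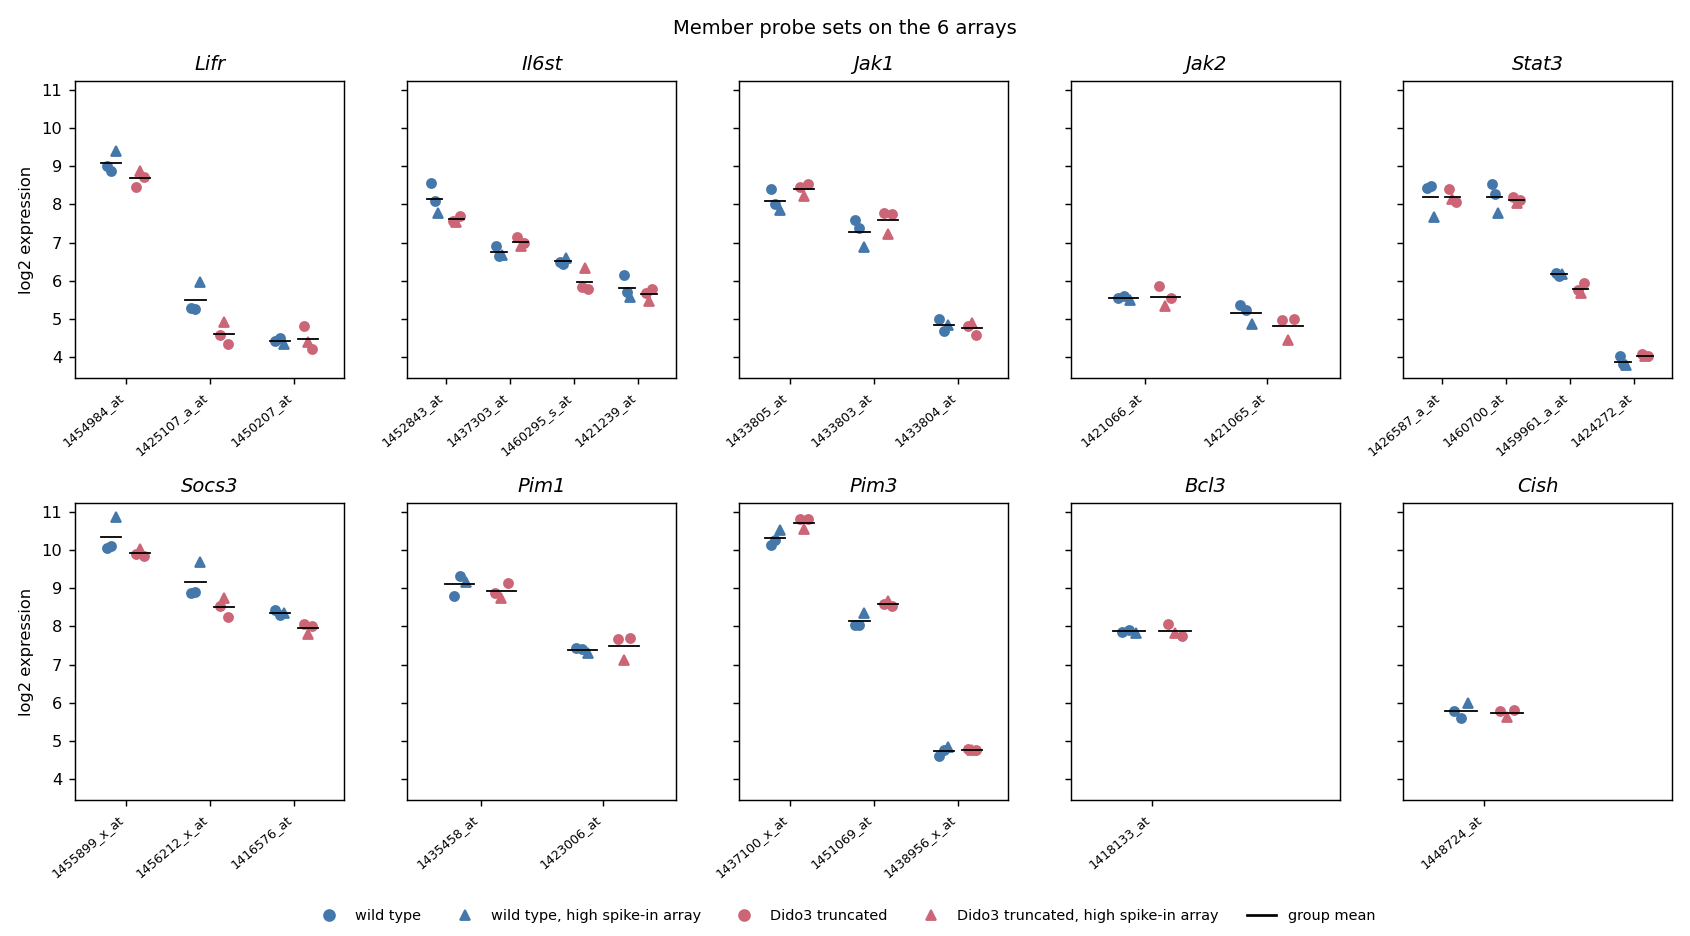
log2 expression (y axis) of each of the 26 member probe sets (x axis) on the 6 arrays, by gene; blue marks wild-type and red truncated arrays, triangles the 2 arrays with high spike-in controls, and black lines group means. The 3 Socs3 probe sets are lower and 2 of the 3 Pim3 probe sets higher in every truncated array than in any wild-type array, but no probe set passed the test.

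The receptor chains were each read by probe sets that differed in level and in difference. Lifr, the chain that gives the receptor its specificity for LIF, was brightest on 1454984_at, at 8.99, 8.88 and 9.39 in wild-type replicates 1 to 3 and 8.46, 8.88 and 8.73 in truncated replicates 1 to 3. The highest wild-type value was that of replicate 3, the array with the fewest fibroblast transcripts, and wild-type replicate 2 met truncated replicate 2. The difference was −0.40 (SE 0.17; limma adjusted p = 0.328).

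The second Lifr probe set, 1425107_a_at, was at 5.30, 5.26 and 5.97 in wild-type and 4.59, 4.94 and 4.34 in truncated arrays. All wild-type arrays were above all truncated ones, and the 2 arrays with high spike-in controls were the brightest of their groups. The difference of −0.89 (SE 0.23, 95% interval −1.43 to −0.34), 1.85-fold lower, had an adjusted p of 0.112. The truncated mean of 4.62 lay below the median of the arrays, 4.82, so the size of the fall is taken to a level below that median. Split by spike-in level, it was −0.81 in the 4 low-spike arrays and −1.03 in the high-spike pair. With a spike-in block the adjusted p was 0.00979, with the fibroblast mean as a covariate it was 0.00768, and in the 4 arrays alone it was 0.0484; over all 16 alternatives it ranged from 0.00768 to 0.353. The third probe set, 1450207_at, lay below the median of the arrays in both groups, at 4.23 to 4.82, and differed by 0.05 (adjusted p = 0.932).

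Il6st was read by 4 probe sets that did not point the same way. On the brightest, 1452843_at, wild-type arrays were at 8.57, 8.09 and 7.77 and truncated arrays at 7.58, 7.55 and 7.70. The truncated arrays were close together while the wild-type arrays were spread out (SD 0.08 against 0.40), and the lowest wild-type array was replicate 3. The difference of −0.54 (SE 0.20) had an adjusted p of 0.253, and it was −0.69 in the 4 low-spike arrays and −0.23 in the high-spike pair. A probe set that can cross-hybridise, 1460295_s_at, was at 6.48, 6.45 and 6.60 in wild-type and 5.83, 6.33 and 5.78 in truncated arrays, a difference of −0.53 (SE 0.16; adjusted p = 0.157). Here truncated replicate 2 lay closest to wild type; without it the difference was −0.70 with an adjusted p of 0.0386, and with a spike-in block the adjusted p was 0.0466, in a range of 0.0386 to 0.447 over 15 alternatives. By contrast 1437303_at was slightly higher in truncated arrays, at 7.16, 6.91 and 7.0 against 6.91, 6.64 and 6.69 (difference 0.27, SE 0.11, adjusted p = 0.318). The faintest Il6st probe set, 1421239_at, differed by −0.17 (adjusted p = 0.735). Taking the mean of all 4, Il6st differed by −0.24 (SE 0.11; limma adjusted p = 0.311 over all genes).

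**Figure D2:**
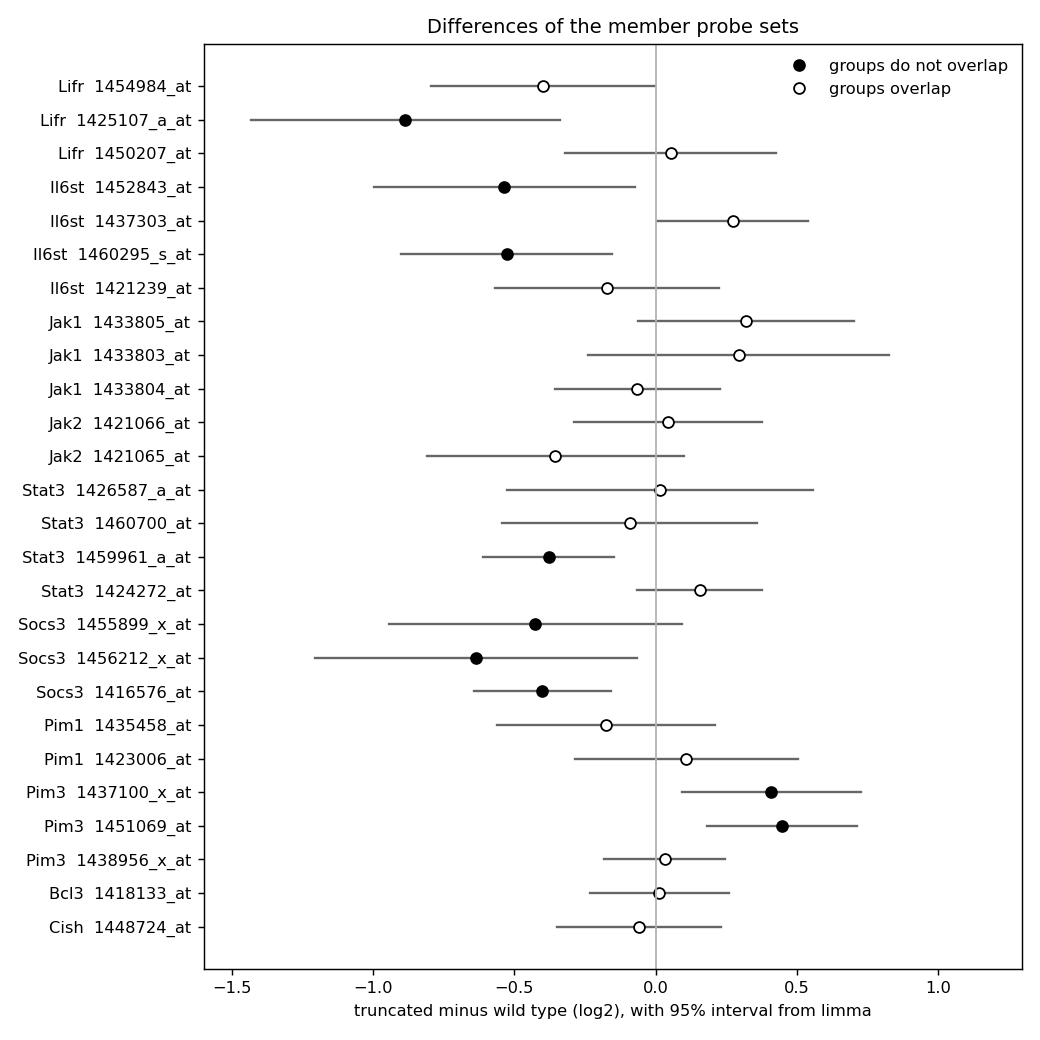
Truncated minus wild-type difference on the log2 scale (x axis) of each member probe set (y axis), with its 95% interval from limma; filled points are probe sets whose groups do not overlap. The 2 largest differences, of Lifr 1425107_a_at (−0.89) and Socs3 1456212_x_at (−0.64), also have the 2 intervals that reach past −1, and the probe sets of Il6st, among other genes, lie on both sides of 0.

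None of the 5 probe sets of the 2 kinase genes passed. JAK1 is the main kinase on gp130. The Jak1 probe set 1433805_at was at 8.40, 8.01 and 7.84 in wild-type and 8.45, 8.23 and 8.53 in truncated arrays. Only wild-type replicate 1 reached the truncated range, and the difference was 0.32 (SE 0.16; adjusted p = 0.433). On 1433803_at it was 0.30 (SE 0.22; adjusted p = 0.644), with wild-type replicate 3 the lowest array at 6.88, and 1433804_at lay near the median of the arrays and differed by −0.06 (adjusted p = 0.885).

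Jak2, a related kinase that serves many cytokine receptors, was read at 5.49 to 5.61 in wild-type and 5.34 to 5.87 in truncated arrays on 1421066_at, a difference of 0.04 (SE 0.14; adjusted p = 0.939). On 1421065_at wild-type arrays were at 5.37, 5.24 and 4.88 and truncated arrays at 4.97, 4.45 and 5.01 (difference −0.36, adjusted p = 0.470). In both groups the array with high spike-in controls was the lowest on this probe set.

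Stat3, the transcription factor of the pathway, differed between the groups by less than the SD of the wild-type arrays on its 2 brightest probe sets. On 1426587_a_at the wild-type arrays were at 8.42, 8.48 and 7.66 and the truncated arrays at 8.41, 8.14 and 8.07. Wild-type replicate 3 was the lowest of the 6, and the wild-type SD was 0.46 against 0.18 for truncated arrays. The difference was 0.02 (SE 0.23, 95% interval −0.52 to 0.56; adjusted p = 0.988). The value was −0.21 in the 4 low-spike arrays and 0.48 in the high-spike pair, so its sign depended on these 2 arrays. On 1460700_at wild-type arrays were at 8.54, 8.28 and 7.77 and truncated arrays at 8.18, 8.03 and 8.10 (difference −0.09, SE 0.19, adjusted p = 0.895). Here too the sign turned, from −0.27 in the 4 low-spike arrays to 0.26 in the high-spike pair. The third probe set, 1459961_a_at, gave another picture: wild-type arrays were close together at 6.19, 6.14 and 6.18, and all truncated arrays lay lower, at 5.75, 5.67 and 5.95. Its difference was −0.38 (SE 0.10; adjusted p = 0.111), with an adjusted p of 0.0767 to 0.330 over 16 alternatives. Which Stat3 transcripts each probe set reads was not analysed here. The faint probe set 1424272_at, below the median of the arrays, differed by 0.16 (adjusted p = 0.524).

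Socs3 was lower in the truncated cells on each of its 3 probe sets, with no overlap between the groups on any of them, but none passed. SOCS3 is the inhibitor that STAT3 induces and that limits signalling from gp130. On 1416576_at, the one Socs3 probe set not marked as able to cross-hybridise, wild-type arrays were at 8.43, 8.30 and 8.36 and truncated arrays at 8.07, 7.80 and 8.01. The 2 groups were each tight, and truncated replicate 2 was the lowest. The difference was −0.40 (SE 0.10, 95% interval −0.64 to −0.16), 1.32-fold lower, with an adjusted p of 0.105 and a range of 0.0659 to 0.250 over 16 alternatives.

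The other Socs3 probe sets, 1455899_x_at and 1456212_x_at, shared another pattern over the arrays. On 1455899_x_at wild-type arrays were at 10.06, 10.10 and 10.87 and truncated arrays at 9.90, 10.02 and 9.83, a difference of −0.43 (SE 0.22; adjusted p = 0.441). On 1456212_x_at they were at 8.86, 8.91 and 9.68 and at 8.55, 8.75 and 8.26, a difference of −0.64 (SE 0.24; adjusted p = 0.273). In both, wild-type replicate 3 stood well above the other 5 arrays, which it did not on 1416576_at. Their differences were therefore larger in the high-spike pair, −0.85 and −0.93, than in the other 4 arrays, −0.21 and −0.49. Without wild-type replicate 3 the differences were −0.16 and −0.37. With the fibroblast mean as a covariate both passed, at −0.41 (adjusted p = 0.0429, range 0.0429 to 0.703 over 15 alternatives) and −0.62 (adjusted p = 0.0185, range 0.0185 to 0.594); with a spike-in block only 1456212_x_at did (adjusted p = 0.0486).

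Pim1 and Pim3, serine/threonine kinases that promote survival and whose genes respond to STAT3, had no probe set past the threshold. Pim3 was higher in all truncated arrays on 2 of its 3 probe sets. On 1451069_at wild-type arrays were at 8.04, 8.05 and 8.35 and truncated arrays at 8.59, 8.67 and 8.53, a difference of 0.45 (SE 0.11, 95% interval 0.18 to 0.71), 1.36-fold higher, with an adjusted p of 0.101. This was the smallest adjusted p of the 26 probe sets. It passed under 4 of 16 alternatives: array weights (adjusted p = 0.0296), a spike-in block (0.0394), the fibroblast mean as a covariate (0.0218) and without wild-type replicate 3 (0.0340), in a range of 0.0218 to 0.296. On 1437100_x_at the arrays were at 10.13, 10.26 and 10.53 and at 10.81, 10.54 and 10.80. The arrays with high spike-in controls nearly met, at 10.53 and 10.54, so that the difference of 0.41 (SE 0.13; adjusted p = 0.198) was 0.61 in the 4 other arrays and 0.01 in that pair. The third Pim3 probe set, 1438956_x_at, was below the median of the arrays and differed by 0.03 (adjusted p = 0.926).

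Pim1 was at 8.81, 9.32 and 9.17 in wild-type and 8.89, 8.75 and 9.13 in truncated arrays on 1435458_at (difference −0.18, SE 0.16, adjusted p = 0.719). On 1423006_at it was at 7.44, 7.42 and 7.30 and at 7.68, 7.12 and 7.69 (difference 0.11, SE 0.17, adjusted p = 0.848). The groups overlapped on both probe sets and the signs were opposite. On 1423006_at the difference was 0.25 in the 4 low-spike arrays and −0.18 in the high-spike pair.

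Bcl3 and Cish each had 1 probe set and differences close to 0. Bcl3, an atypical member of the IκB family that acts in the nucleus, was at 7.85, 7.92 and 7.84 in wild-type and 8.06, 7.84 and 7.76 in truncated arrays, a difference of 0.01 (SE 0.10, 95% interval −0.23 to 0.26; adjusted p = 0.977). Cish, a SOCS-family inhibitor best known as a target of STAT5, was at 5.80, 5.61 and 6.0 and at 5.78, 5.63 and 5.82, a difference of −0.06 (SE 0.12, 95% interval −0.35 to 0.23; adjusted p = 0.895). Truncated and wild-type arrays were interleaved for both genes. The Cish difference was 0.096 in the 4 low-spike arrays and −0.37 in the high-spike pair.

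**Figure D3:**
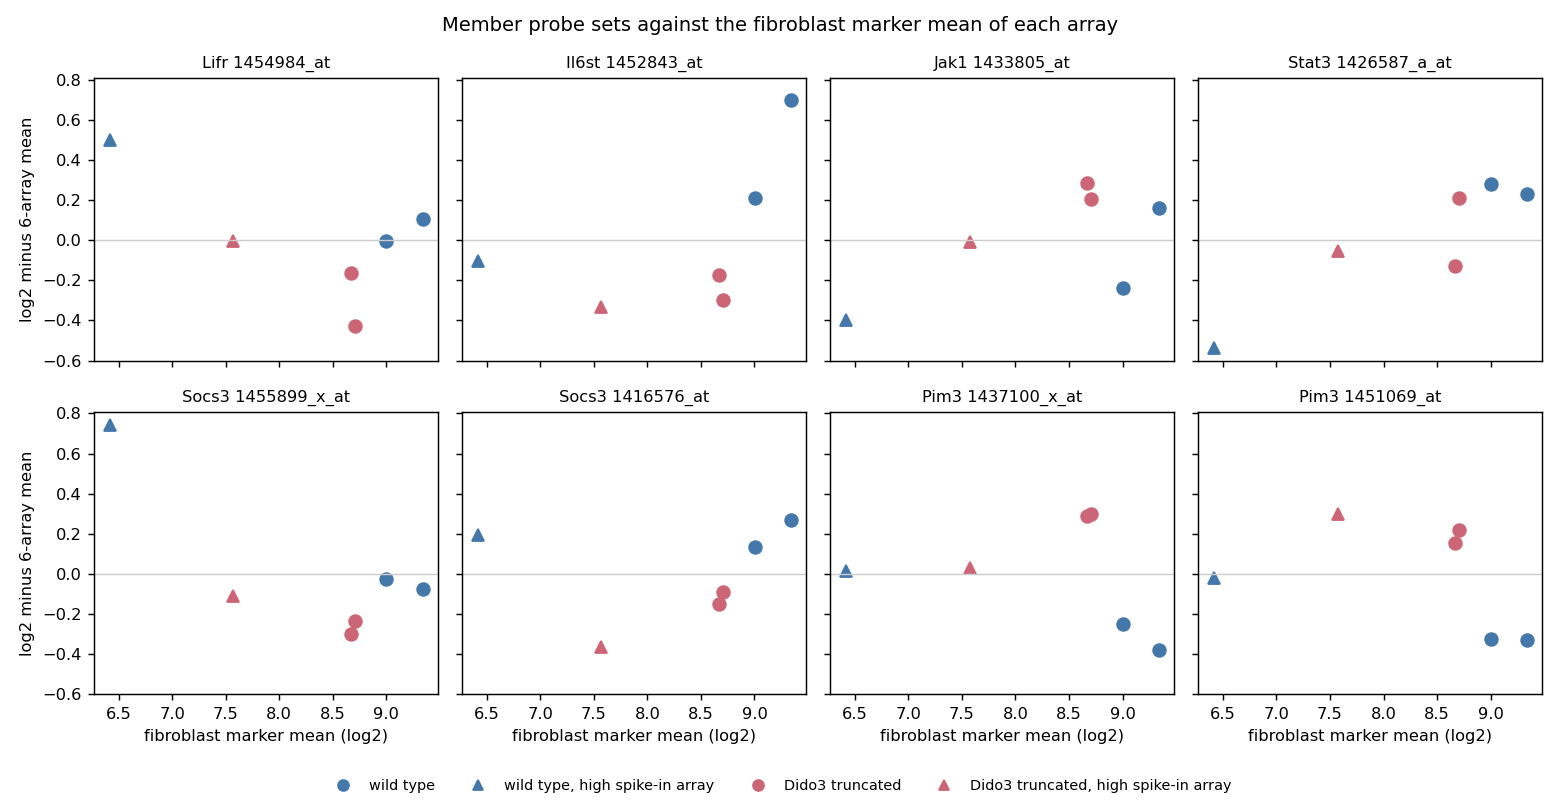
Level of 8 member probe sets as log2 minus their own mean over the 6 arrays (y axis) against the mean of 23 fibroblast markers on the same array (x axis); blue marks wild-type and red truncated arrays, triangles the 2 arrays with high spike-in controls. Wild-type replicate 3, at a fibroblast mean of 6.42, is the highest array for Lifr and Socs3 1455899_x_at and the lowest for Jak1 and Stat3. On the plotted probe sets of Il6st, Socs3 and Pim3 all truncated arrays lie on 1 side of all wild-type arrays.

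Wild-type replicate 3, with the fewest fibroblast transcripts, was the highest or lowest array on the plotted probe sets of Lifr, Jak1 and Stat3 and on Socs3 1455899_x_at. Truncated replicate 2, with the next lowest fibroblast mean, lay inside the range of the other arrays on these probe sets. In bulk RNA, fewer cells of a type and less RNA per cell cannot be told apart. Osmr, the receptor chain for oncostatin M that pairs with gp130 in place of LIFR, was lowest on the array with the fewest fibroblast transcripts, at 7.24, 5.62 and 3.49 in wild-type and 6.21, 5.62 and 6.32 in truncated arrays. Its difference of 0.60 (SE 0.85; limma adjusted p = 0.80 over all genes) was −0.17 in the 4 low-spike arrays and 2.13 in the high-spike pair. The part of fibroblast transcripts in the member values was not tested beyond these comparisons and the fit with their mean as a covariate, in which 4 of the 26 member probe sets passed (1 higher, 3 lower) while the calls over all probe sets went from 1261 to 3288. The spike-in block also gave 4 of the 26 (1 higher, 3 lower), with 2366 calls in all. The 4 arrays alone gave 2 of the 26, both lower, with 1138 calls in all.

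The wider pathway was described by 6 lists of 63 genes, none of them members, of which 56 were measured by a probe set with 1 symbol. Each gene was read by its brightest probe set and tested with limma over 18193 genes, where 4.67% passed (2.7% higher, 1.97% lower). Of the 56, 2 rose, 2 fell and 52 did not pass. At an unadjusted p under 0.05, 8 of the 56 were higher and 8 lower, the 4 called genes included, against 18.5% of all genes. All 4 that passed were on the list of other STAT3 targets. The lists were chosen with earlier results of these data known, so the list on which calls fell is not a result about the pathway. The groups did not overlap for 10 genes that were higher and 9 that were lower, against 22.4% of all genes. The median difference was 0.02 over the 56 genes and 0.0071 over all genes tested.

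**Figure D4:**
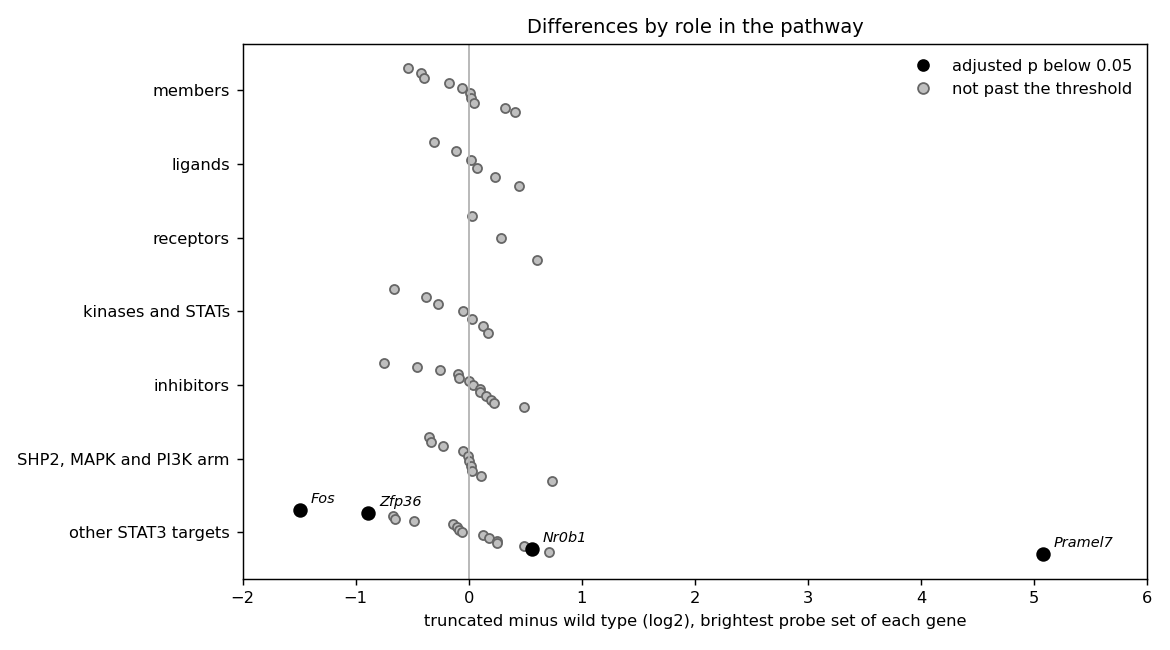
Truncated minus wild-type difference on the log2 scale (x axis) of the brightest probe set of each member and of each measured gene of the 6 pathway lists (y axis), with genes past the threshold in black. Fos and Zfp36 fell and Nr0b1 and Pramel7 rose, Pramel7 by 5.08 against a wild-type mean below the median of the arrays; every other gene shown did not pass.

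Of the 6 ligands measured, 0 passed. Lif itself was read near the median of the arrays, at 4.90, 5.11 and 4.88 in wild-type and 5.36, 5.32 and 5.55 in truncated arrays. All truncated arrays were above all wild-type arrays, and the difference of 0.45 (SE 0.11) had an adjusted p of 0.0744, or 0.0474 with a spike-in block and 0.0409 to 0.228 over 17 alternatives. The value is the Lif transcript in the culture and not the LIF added to the medium; which cells made it was not tested. The 3 measured receptor genes, Osmr among them, had 0 calls.

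Among the other kinases and STAT genes 0 of 7 passed, and Tyk2, the remaining JAK-family kinase of gp130, differed by 0.13 (SE 0.11; adjusted p = 0.625). Of 13 inhibitors 0 passed. Socs1 lay below the median of the arrays and differed by 0.03 (adjusted p = 0.937). Socs2, a SOCS-family gene, had the largest difference of the inhibitors: wild-type arrays were at 9.04, 9.27 and 8.90 and truncated arrays at 8.25, 8.62 and 8.08. The groups were well apart, and the difference of −0.75 (SE 0.17) narrowly missed the threshold (adjusted p = 0.0567). It passed under 9 of 17 alternatives, in a range of 0.00883 to 0.220, and was −0.99 in the 4 low-spike arrays and −0.27 in the high-spike pair. In the arm through SHP2, MAP kinase and PI3 kinase 0 of 10 passed, and Ptpn11, which encodes SHP2, differed by −0.0077 (SE 0.13, 95% interval −0.33 to 0.31; adjusted p = 0.990).

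The calls on the list of other STAT3 targets, a list chosen with earlier results of these data known, went in both directions. Of 17 genes 2 rose and 2 fell, with a median difference of −0.06. Pramel7, an inner cell mass gene that responds to LIF, was at 4.74, 3.98 and 4.68 in wild-type and 9.56, 9.46 and 9.61 in truncated arrays (adjusted p = 0.000191), on a probe set that can cross-hybridise. Its wild-type mean of 4.47 lay below the median of the arrays, so the size of the rise is taken from a level below that median. Without such probe sets it was read by another one and rose by 1.86. Nr0b1, a nuclear receptor gene of naive stem cells, was at 9.20, 9.48 and 9.19 and at 9.80, 9.91 and 9.82 (difference 0.56, SE 0.11, adjusted p = 0.0413). The early-response transcription factor gene Fos was at 8.43, 8.71 and 8.21 and at 6.69, 7.67 and 6.52 (difference −1.49, SE 0.30, adjusted p = 0.0449). The Fos difference was −1.97 in the 4 low-spike arrays and −0.54 in the high-spike pair. Zfp36, an mRNA decay factor of the same early response, was at 6.11, 6.62 and 6.39 and at 5.57, 5.37 and 5.52 (difference −0.89, SE 0.14, adjusted p = 0.0227). Pramel7 passed under all 17 alternatives, Nr0b1 under 8, Fos under 13 and Zfp36 under 11. In the 4 low-spike arrays Nr0b1 and Zfp36 differed by 0.47 and −0.82, against 0.56 and −0.89 over all 6, and did not pass (adjusted p = 0.118 and 0.0856, in ranges of 0.0238 to 0.151 and 0.00667 to 0.106).

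Klf4, Tfcp2l1, Gbx2 and Myc, transcription factor genes on the same list, did not pass. Klf4 was at 9.94, 10.12 and 10.49 in wild-type and 10.85, 10.69 and 11.13 in truncated arrays, a difference of 0.71 (SE 0.17; adjusted p = 0.0764). Tfcp2l1 was at 9.66, 9.50 and 9.64 and at 9.94, 9.69 and 9.92, a difference of 0.25 (SE 0.11; adjusted p = 0.283). Neither gene's groups overlapped, and for both the difference was smaller in the high-spike pair, 0.20 and 0.04, than in the 4 other arrays, 0.96 and 0.35. Gbx2 was at 7.85, 7.35 and 7.0 and at 6.51, 7.84 and 6.40. Truncated replicate 2 stood apart from the other truncated arrays on Gbx2, and the difference of −0.48 (SE 0.41; adjusted p = 0.632) was −1.15 in the 4 arrays, where it passed (adjusted p = 0.0461, range 0.0461 to 0.904 over 17 alternatives), and 0.85 in the pair. Myc differed by 0.25 (SE 0.27; adjusted p = 0.726), with wild-type replicate 3 the lowest array at 6.66, and by −0.16 in the 4 arrays. Klf4 passed under 5 of 17 alternatives and Tfcp2l1 and Myc under 0.

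Expressed genes whose level followed a member over the 6 arrays were sought for members whose brightest probe set spanned at least 1 log2 unit, which were Il6st and Socs3. Likeness was the Euclidean distance between profiles centred on their own mean, over 6 arrays and 11723 other genes above the median of the arrays. Nearest to Il6st 1452843_at were Brf2 (distance 0.16), Cog8 (0.23) and Selenom (0.24). All 3 were highest in wild-type replicate 1, and none passed the test (adjusted p 0.0836 to 0.344). Nearest to Socs3 1455899_x_at were Trmt13 (0.12), Dancr (0.13) and Fam199x (0.15). These were highest in wild-type replicate 3, the array that also had high spike-in controls and few fibroblast transcripts, and none passed (adjusted p 0.378 to 0.408).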

How the data were processed

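The authors deposited 1 log2 expression value for each probe set and array. How these were summarised and normalised is not stated in the labels used here; the range of the values shows the log2 scale. Per the labels' protocols, total RNA was labelled with biotin in 1 cycle of amplification. Of 45101 probe sets, 64 controls were left out and 45037 were tested. A gene was named only from a probe set with 1 symbol (34945), of which 34741 matched the RefSeq table by Entrez identifier with 0 changed symbols. Genes were read by the probe set with the highest mean; the median of all values, 4.82, served as the expression limit.

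Groups were compared with limma 3.58.1 (lmFit, then eBayes; R 4.3.3) and genotype as the only term, two-sided, and Benjamini-Hochberg adjustment over all probe sets or all genes; group values are means ± SD. The number of arrays, 3 per group, limits the precision. On simulated data the probe set fit recovered 55 of 100 changes of 1 log2 unit and 92 of 100 changes of 2 log2 units. The simulated noise was independent between probe sets and held no differences shared across an array, such as those of the high-spike arrays. Smaller changes were not simulated. Members, lists and alternatives were chosen with earlier results of these data known. Named were all member probe sets, list genes past the threshold, 10 fixed list genes, and the 3 genes nearest in profile to a member. Plots used matplotlib 3.10.9 in Python 3.11.15.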

Additional observations from a re-analysis of the deposited data

How the results depend on the processing

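The count of member probe sets past the threshold was 0, and stayed 0 with the replicate block, quantile normalization, median centring, dim or cross-hybridising probe sets left out, and a trended, robust variance. It was 1 with array weights, 4 with the spike-in block, 2 in the 4 low spike-in arrays, 4 with the fibroblast covariate and 0 to 1 with an array left out. Over all probe sets the count of 1261 became 731 with the replicate block, 2495 with array weights, 2366 with the spike-in block, 3288 with the fibroblast covariate and 149 to 1669 with an array left out. Over all genes 850 became 466, 2057, 1569, 2032 and 129 to 1191 in the same order. Of the pathway genes 4 became 10 with array weights, 9 with the spike-in block, 12 with the fibroblast covariate, 7 with the mean of all probe sets and 1 to 7 with an array left out; with the replicate block it was 3. Deviations from the group means correlated at 0.24, −0.30 and −0.10 between arrays of the same replicate number. The high-spike arrays carry different replicate numbers, so these correlations cannot tell whether the arrays were paired. The cause of the shifts in the counts was not tested.

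Of 407 member values under alternatives, 376 kept direction and side of the threshold, 13 passed and 18 turned sign, all 18 on probe sets with no call in any alternative. Signs turned with median centring for Stat3 1426587_a_at (−0.0067) and Bcl3 (−0.010), with array weights for Stat3 1426587_a_at (−0.11), Cish (0.039) and Socs1 (−0.048), in the 4 arrays for Stat3 1426587_a_at (−0.21), Cish (0.096), Osmr (−0.17) and Myc (−0.16), with quantile normalization for Ptpn11 (0.015) and with the mean of all probe sets for Ptpn11 (0.20). With an array left out, ranges that crossed 0 were −0.29 to 0.00035 for Il6st 1421239_at, −0.14 to 0.026 for Jak1 1433804_at, −0.31 to 0.079 for Stat3 1460700_at, −0.25 to 0.16 for Stat3 1426587_a_at, −0.030 to 0.080 for Pim3 1438956_x_at, −0.074 to 0.078 for Bcl3, −0.16 to 0.041 for Cish, −0.12 to 0.18 for Lifr 1450207_at, −0.094 to 0.17 for Jak2 1421066_at, −0.38 to 1.49 for Osmr, −0.078 to 0.45 for Myc, −0.051 to 0.13 for Socs1 and −0.094 to 0.13 for Ptpn11.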
